A study of Rattus norvegicus with 5 samples.

Results

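Cav1, Aqp5, Aqp1, Pdpn and Ager are 5 genes of the thin wall between air and blood in the lung, and their probe sets were described on 5 one-colour oligonucleotide arrays of rat lung RNA. All probe sets whose platform annotation names 1 of the genes were taken, which gave 6 of 8740 probe sets and 5 of 4736 named genes. The genes were chosen by their known role and with their intensities on these same arrays in view, Cav1 for its high early and low intermediate value. The values are therefore given as a description, with no test.

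Each array was hybridised with a pool of equal amounts of total RNA, and each group had 1 array. Exposure was to EHC-93, an urban dust preparation, put into the trachea. The early array held RNA taken 2, 4 and 6 h later, the intermediate array 15, 18 and 21 h later, and the late array 24, 32 and 40 h later. The sham array held RNA taken 2, 15 and 24 h after saline, and the untreated array RNA of 3 rats with no instillation. The sources used here do not give the strain, age or sex of the rats, the dose, or how many rats stand behind an instilled pool. The early times have no saline pool of their own, and with no second array in any group there is no replicate error.

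The alveolar type 1 cell is the very flat epithelial cell that covers most of the alveolar surface and across which gas diffuses to the capillary. Podoplanin (Pdpn), the receptor for advanced glycation end products (Ager) and the water channel aquaporin 5 (Aqp5) are standard markers of it in rat lung. Caveolin 1 (Cav1) is the main structural protein of caveolae, the flask-shaped membrane pits found both in type 1 cells and in capillary endothelium, and aquaporin 1 (Aqp1) is the water channel of the capillary and of red blood cells. In RNA of whole lung, fewer cells of a type and less RNA per cell cannot be told apart.

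The sequences just before the transcription start are shown for Cav1, Aqp5 and Aqp1, since the highest value of each member lay on the same array. They are from RefSeq (assembly GRCr8), read 5′ to 3′, and the last base printed is the base before the start. Capitals mark a GC box (GGGCGG) or a TATA box (TATANA), searched on both strands. Only the starts that are also the outermost RefSeq start of the gene are printed, so Pdpn, Ager and the inner start of Cav1 are not.
Cav1, chr4:46606418-46606537, plus strand: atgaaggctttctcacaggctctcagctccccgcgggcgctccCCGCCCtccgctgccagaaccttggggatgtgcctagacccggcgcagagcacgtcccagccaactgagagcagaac
Aqp5, chr7:132601408-132601527, plus strand: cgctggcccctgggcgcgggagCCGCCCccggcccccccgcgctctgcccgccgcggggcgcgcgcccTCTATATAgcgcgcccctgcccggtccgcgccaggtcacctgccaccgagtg
Aqp1, chr4:85812664-85812783, plus strand: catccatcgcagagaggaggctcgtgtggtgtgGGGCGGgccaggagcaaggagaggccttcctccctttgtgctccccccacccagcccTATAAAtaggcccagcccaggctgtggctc

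In the 250 bases before these starts, a GC box began 77 bases before the start of Cav1, 98 and 213 bases before that of Aqp5 and 87 bases before that of Aqp1. The TATA letters began 184 bases before the start in Cav1, at 2 overlapping places 52 and 50 bases before it in Aqp5, and 30 bases before it in Aqp1. The windows of Pdpn and Ager had no TATA letters, and Pdpn had 3 GC boxes. Of 33469 RefSeq windows of the same length, 30.5% held a GC box and 24.2% the TATA letters. The AP-1 letters (TGANTCA), held by 6.34% of all windows, were in none of the members' windows, and CCAAT, held by 34.0%, was in that of Ager alone. The share of G and C was 60% for this Cav1 window, 83.2% for Aqp5 and 65.2% for Aqp1, against a median of 51.2%. For Pdpn and Ager it was near that median, at 51.6% and 53.2%. A match of letters is a description and not a binding site.

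The values are deposited intensities, scaled here to an equal median on each array, with a floor at 172.53, under which no order is read. Where 5 values follow each other, they are those of the dust arrays in time order (early, intermediate, late), then of saline sham, then of untreated lung. Median deposited intensities lay between 262 and 301 before this scaling, which lifted the intermediate array against sham by 0.20 and against untreated by 0.14 on the log2 scale. The small differences of the members other than Cav1 on that array depend on it. All 6 probe sets of the members were above the floor on all 5 arrays. Markers of lung epithelium were bright on every array: Sftpc, the surfactant protein of alveolar type 2 cells, read 48084 to 71970 and Scgb1a1, the secretory protein of club cells, 19738 to 25506 over the arrays. How far 5′ signals of control transcripts fell short of their 3′ signals differed between arrays and is given with Cav1. A gene is called where it was at least 2-fold away, in 1 direction, from each reference array.

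Cav1 had the largest differences of the 5 members. Its probe set read 2655, 317, 535, 808 and 783. The early array stood far above all others, the 2 unexposed arrays lay close together, and the intermediate and late arrays lay below both. On the early array Cav1 exceeded sham by 3.28-fold and untreated by 3.39-fold. On the intermediate array it was 2.55-fold below sham and 2.47-fold below untreated (log2 differences of -1.35 and -1.31). The late value, at log2 differences of -0.60 and -0.55, was lower than both by less than 2-fold. Sham exceeded untreated by a fold of 1.03.

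The early array stood further from the other phases than from the unexposed arrays. Cav1 was 8.39-fold higher on the early than on the intermediate array and 4.97-fold higher than on the late array, and the intermediate value was 1.69-fold below the late one. Over 3667 genes above the floor on at least 1 array, the early over intermediate fold of Cav1 ranked second after Hspa1a, an inducible heat shock protein, at 14.8-fold. Folds against a value at the floor are lower bounds here, as for Fosl1 at 6.74-fold in the next place. The rank of Cav1 therefore holds for floored values only. The range of Cav1 over the 5 arrays, 3.07 on the log2 scale, was reached or exceeded by 5 of the 2783 genes above the floor on all arrays, Cav1 included. The other 4 were Hspa1a, Orm1, Hmox1 and Ccl2, and none of these had the intermediate array at the bottom.

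**Figure D1:**
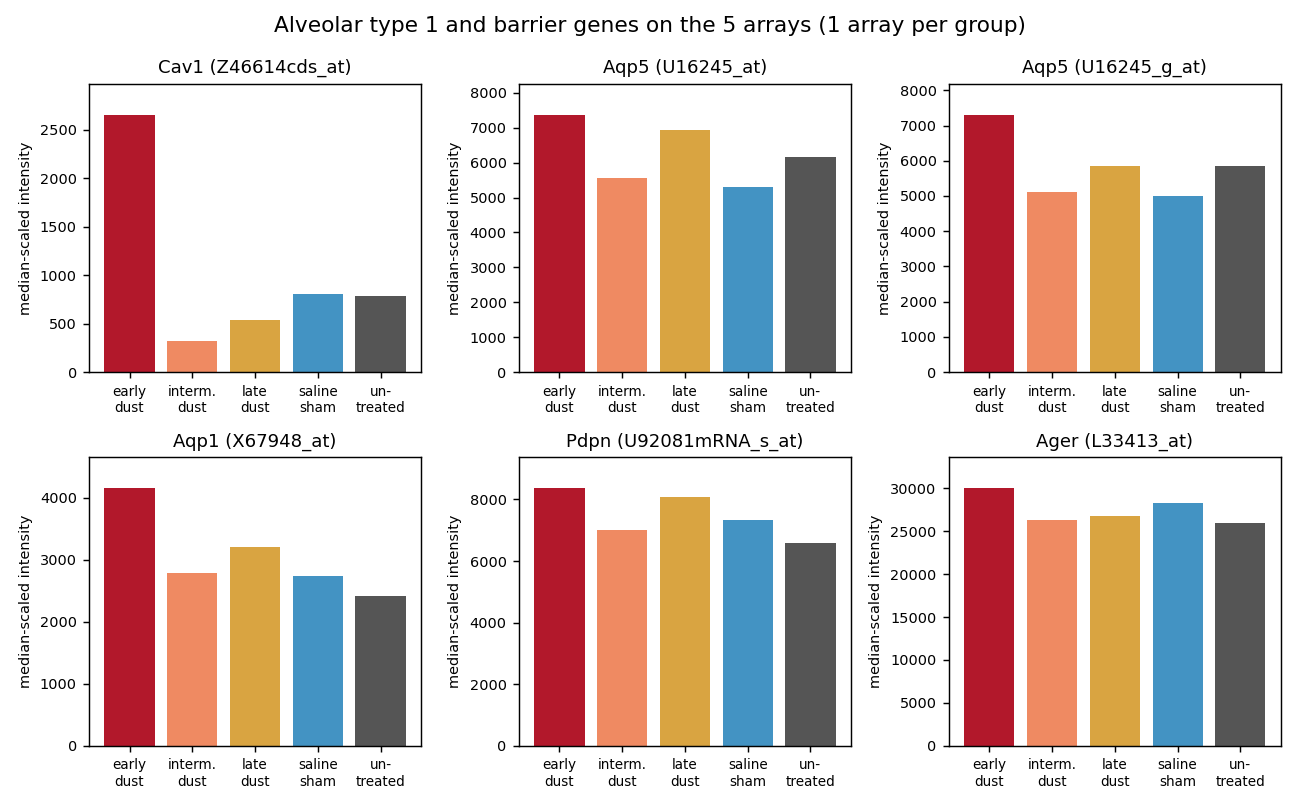
Bars give the median-scaled intensity of each member probe set on the 5 arrays, 1 array per group, with an axis from 0 that differs between panels and no error bars because no group has a replicate. Cav1 falls from 2655 on the early array to 317 on the intermediate array, while the Ager bars stay between 25949 and 30010.

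Aqp5, through which type 1 cells pass water at their air-facing membrane, was read by a pair of probe sets made from the same GenBank entry. The first read 7379, 5566, 6942, 5300 and 6160. The second read 7314, 5114, 5839, 4991 and 5852. Both were highest on the early and lowest on the sham array (lowest on the intermediate array under the other 3 scalings tried), but they placed the late array differently, above untreated for the first and just below it for the second. The early value of the first exceeded sham by 1.39-fold and untreated by 1.20-fold, and that of the second by 1.47-fold and 1.25-fold.

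The Aqp5 pair gives the only repeat reading of a member within an array. The log2 difference between its probe sets ran from 0.01 on the early to 0.25 on the late array. Differences of that size between arrays, such as the 0.17 of the first probe set on the late against the untreated array, are within the disagreement of these probe sets, which share a source sequence.

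Aqp1, the water channel of capillary endothelium and red cells, read 4156, 2781, 3207, 2735 and 2425. The 3 exposed arrays were above both unexposed ones, the intermediate array only just. The early value of Aqp1 exceeded sham by 1.52-fold and untreated by 1.71-fold, the second largest difference among the members there. On the late array the folds were 1.17 and 1.32, and on the intermediate array 1.02 and 1.15. The mean difference of the intermediate array from both unexposed arrays changed sign under 3 other scalings.

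Hbb, the beta globin of red cells, moved with the arrays in part the same way: it read 10501, 4017, 5403, 9118 and 3544. Its highest value was on the early and its lowest on the untreated array, as for Aqp1, but the sham array was high for Hbb and not for Aqp1. None of the 3 measured erythroid genes was called on any exposed array. Their summed intensity, most of it Hbb, was 11682 on the early, 10232 on the sham and between 4615 and 6756 on the other arrays. Alas2 read 689, 533, 726, 589 and 513, and Slc4a1 492, 444, 628, 524 and 558. Both were highest on the late and not on the early array. The part of red cells in the Aqp1 values was not tested.

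Pdpn, a mucin-like protein of the apical membrane of type 1 cells, read 8362, 7008, 8087, 7335 and 6577. The early and late arrays were the high ones and untreated the low one. The early value exceeded sham by 1.14-fold and untreated by 1.27-fold, and the late value by 1.10-fold and 1.23-fold. On the intermediate array Pdpn lay between sham and untreated, but it was the lowest of the 5 with values as deposited and after quantile normalization.

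Ager, the multiligand receptor held at the basal side of type 1 cells, varied least. It read 30010, 26320, 26822, 28269 and 25949. The whole range was 0.21 on the log2 scale, and 97.6% of the 2783 genes above the floor on all arrays had a range at least as wide. Intermediate and late values lay between those of sham and untreated, whereas under the other 3 scalings the intermediate value was the lowest. The corresponding shares were 86.6% for Pdpn, 70.0% for Aqp5, 33.3% for Aqp1 and 0.180% for Cav1.

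Counting the members by the 2-fold rule, 1 of 5 (Cav1, higher) was called on the early array against both unexposed arrays, where 2.84% of 3667 genes were called in either direction. On the intermediate array it was again 1 of 5 (Cav1, lower), against 1.09% of genes. On the late array it was 0 of 5, against 1.64%, and for sham against untreated 0 of 5, against 3.16%. Compared with both other phases, the early array had 1 of 5 members called (Cav1, higher) against 2.48% of genes, the intermediate array 0 of 5 against 0.573% and the late array 0 of 5 against 1.34%. Since the members were chosen with these differences known, nothing is read from the counts. The intermediate call is lost when the floor is raised to the 60th percentile of intensities, which lifts the intermediate value itself: the log2 difference is then -0.77.

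**Figure D2:**
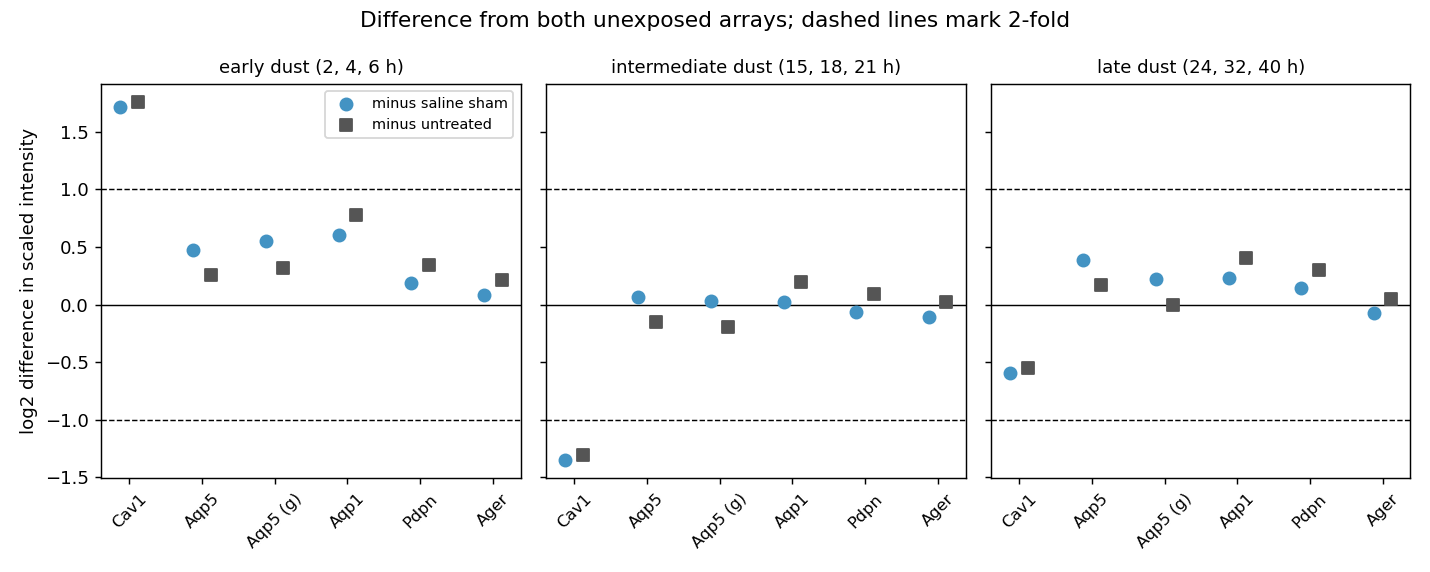
Points give the log2 difference of each member probe set on an exposed array from saline sham (circles) and from untreated (squares); dashed lines mark 2-fold and "(g)" marks the second Aqp5 probe set. Cav1 lies past 2-fold above both on the early and below both on the intermediate array, and the points of all other members stay within 2-fold of both on all 3 exposed arrays.

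With median scaling all 5 genes, and all 6 probe sets, had their highest value on the early array. The early array was the highest of the 5 for 21.2% of the 2783 genes above the floor throughout. The count rests in part on the scaling: it was 4 of 5 with values as deposited, where Ager was highest on the sham array, and 3 of 5 with arrays set to the same 75th percentile, where Pdpn was highest on the late and Ager on the sham array. Cav1, Aqp5 and Aqp1 were highest on the early array under each of these scalings and after quantile normalization. The median difference of the 5 members from the mean of both unexposed arrays was 0.37, -0.04 and 0.22 on the log2 scale for the dust arrays in time order. Over all 3667 genes it was -0.01, 0.09 and 0.07.

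The signal at the 5′ end of a transcript falls below that at its 3′ end when RNA, or the copy made from its 3′ end, is incomplete. From the highest to the lowest array, the 5′ probe set of beta-actin gave 43.1% (early), 24.4% (untreated), 19.6% (late), 14.7% (sham) and 9.07% (intermediate) of the 3′ signal. For GAPDH the percentages in this order of arrays were 67.2%, 39.1%, 38.1%, 25.4% and 23.6%, so both transcripts ordered the arrays alike. The hexokinase controls could not be used, since their 5′ signals were all under the floor.

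Cav1 had its highest value where both ratios were highest and its lowest where both were lowest. Between these ends it did not follow them: sham, with the second lowest ratios, had the second highest Cav1 value, and the late array, with higher ratios than sham, read less. The shift of the ratios from the early to the intermediate array was 4.75-fold for beta-actin and 2.85-fold for GAPDH, and that of the 5′ signals alone 5.97-fold and 2.41-fold, against 8.39-fold for Cav1. From the early to the sham array the ratios differed by 2.93-fold and 2.64-fold and Cav1 by 3.28-fold. From the early to the late array they differed by 2.20-fold and 1.76-fold and Cav1 by 4.97-fold. From the early to the untreated array they differed by 1.77-fold and 1.72-fold and Cav1 by 3.39-fold. The 5′ signals alone, of beta-actin and GAPDH in turn, differed by 3.41-fold and 3.16-fold from sham. They differed by 2.24-fold and 1.61-fold from late and by 2.35-fold and 2.03-fold from untreated.

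**Figure D3:**
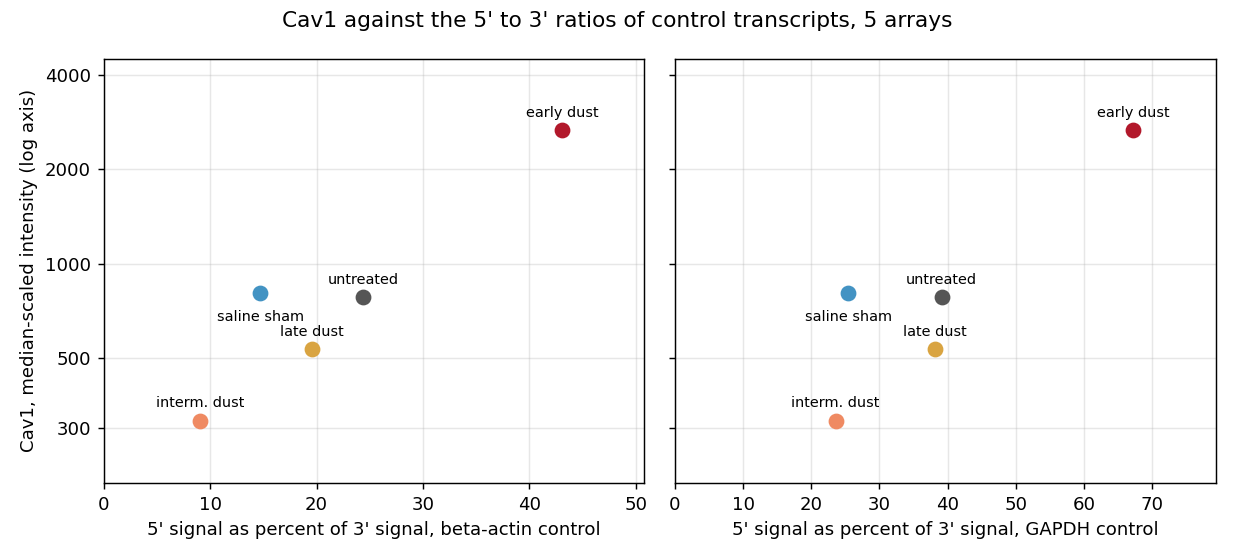
Each point is 1 of the 5 arrays, with the 5′ signal as a percent of the 3′ signal of beta-actin (left) or GAPDH (right) along the horizontal axis and the median-scaled Cav1 intensity on a log axis. The early array, at 43.1% and 67.2%, is at the top right and the intermediate array, at 9.07% and 23.6%, at the bottom left, while the sham, late and untreated arrays between them follow no order.

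Of the 2783 genes above the floor on all arrays, 4.78% had their highest value on the early and their lowest on the intermediate array, as Cav1 did. With median scaling the other 4 members did not, since their lowest arrays were sham (Aqp5) or untreated (Aqp1, Pdpn and Ager). This rests on the scaling: with Cav1 counted, 3 of 5 members (Cav1, Aqp5 and Pdpn) had this pattern with values as deposited, against 6.77% of genes. It was 2 of 5 (Cav1 and Aqp5) with equal 75th percentiles, against 5.33%, and 4 of 5, without Aqp1, after quantile normalization, against 5.69%. The full order of the ratios was shown by 0.97% of the 2783 genes and by none of the members' probe sets, but the second Aqp5 probe set had it under each of the other 3 scalings. Cav1 did not have it under any scaling. The Cav1 probe set has "cds" in its name, a label of the array design taken here as naming a coding-sequence entry. Probe sequences were not used here, so where along its transcript the Cav1 probe set lies was not read. Among 263 such probe sets above the floor on all arrays, 16.3% were highest on the early and lowest on the intermediate array, against 6.26% of all 4454 probe sets and 3.94% of the 2006 made from expressed sequence tags. The median early minus intermediate difference was 0.12 on the log2 scale for the probe sets so named, -0.18 for the sequence-tag ones and -0.11 for all. Cav1, at 3.07, was far outside the middle 90% of the probe sets so named, which reached from -0.76 to 1.55. Since it was chosen for its high early and low intermediate value, nothing is read from this place. The part of RNA or copy length in the Cav1 difference was not tested, and no second Cav1 probe set is named in the annotation.

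**Figure D4:**
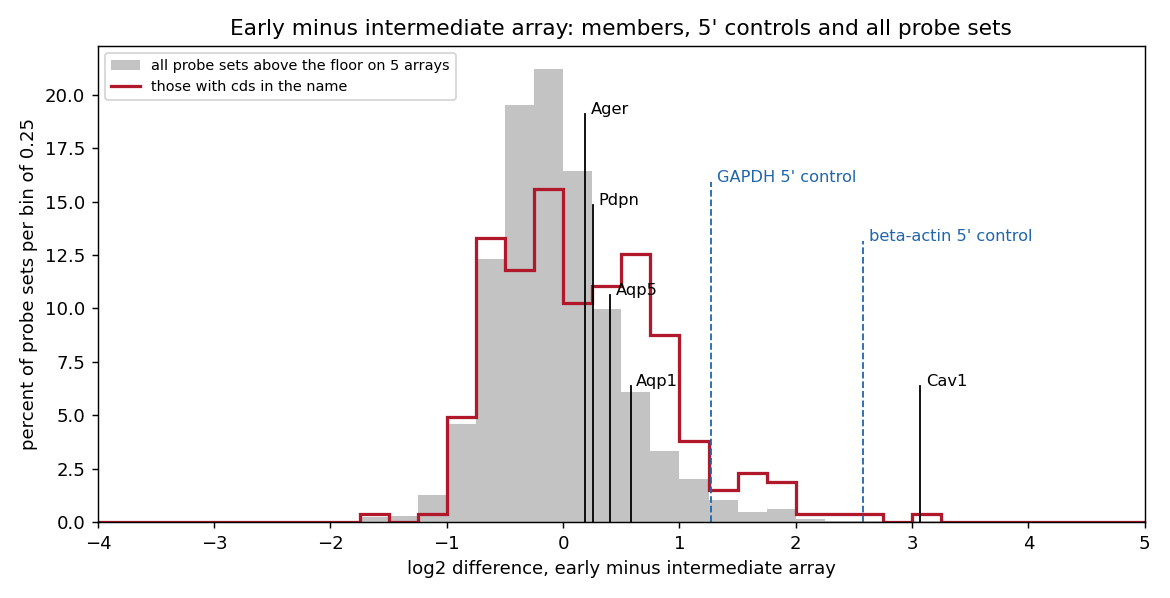
The grey histogram gives the log2 difference of the early from the intermediate array for 4454 probe sets above the floor on all arrays, and the red outline the 263 with cds in the name, both as percent per bin of 0.25. Black lines mark the members, with Cav1 at 3.07 and the others between 0.19 and 0.58, and dashed blue lines the 5′ probe sets of the beta-actin and GAPDH controls; line heights carry no value.

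The 6 genes whose profile over the 5 arrays came nearest to that of Cav1 were Ccl20, Cd55, Arf2, Olr1, Egr2 and Calcrl, out of 2783. Likeness was the root mean square distance between log2 profiles, each centred on its own mean, and it ran from 0.43 for the chemokine Ccl20 to 0.51 for Calcrl, the receptor for adrenomedullin and related peptides. Ccl20 read 2375, 531, 389, 907 and 638, with the late and not the intermediate array lowest. The complement regulator Cd55 read 700 on the early and 184 on the intermediate array, the small GTPase Arf2 1033 and 277, the oxidised LDL receptor Olr1 1912 and 515, and the transcription factor Egr2 947 and 325. Second probe sets did not always show this: that of Cd55 gave an early over intermediate fold of 1.24 against 3.80, and that of Calcrl lay under the floor on the early array and read 465 on the intermediate. A second Olr1 probe set gave 2.82-fold against 3.71, while another, and the second of Arf2, were under the floor on every array. With 5 arrays the likeness is a description.

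Other markers of type 1 cells, from a list drawn up with earlier results of these arrays known, did not share the size of the Cav1 difference. Of 24 listed genes 11 were measured. On the early array 1 was called higher and on the intermediate array 1 lower, in both cases Cav1, and none was called on the late array. Over all genes, 2.84%, 1.09% and 1.64% were called in either direction on these arrays in time order. The list's median difference from the unexposed mean was 0.27, -0.18 and -0.18 on the 3 exposed arrays in time order. The intermediate value was below the early one for 10 of 11, by at least 2-fold for 3: Cav1, the metalloproteinase inhibitor Timp3 (892 to 307) and the vascular growth factor Vegfa (3517 to 1589). The further 3 Vegfa probe sets, all above the floor throughout, gave early over intermediate folds of 2.71, 1.95 and 1.09, so only 1 of them passed 2-fold. Across all 3667 genes, 35.9% were higher on the early than on the intermediate array, and 3.16% by at least 2-fold. The 11 genes include the members Cav1, Aqp5, Pdpn and Ager, chosen with these values in view, so nothing is read from the count.

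The measured genes of the caveola and of membrane rafts other than Cav1 did not show a difference of its size. Of 15 listed genes 8 were measured. Cav1 alone was called, higher on the early and lower on the intermediate array, where 2.84% and 1.09% of all genes were called in either direction. The list's median early minus intermediate difference was -0.12. Cavin3, a coat protein of caveolae, read 1944, 2295, 2128, 2062 and 2086, and its dimmer second probe set 316 on the early and 201 on the intermediate array. The muscle caveolin Cav3 read between 471 and 578 on all arrays. The raft protein Flot1 went the other way, at 2106 on the early and 4110 on the intermediate array (709 and 876 for a second probe set), and Flot2 at 2235 and 1506 the same way as Cav1 by less than 2-fold. Cav2, Cavin1, Cavin2, Cavin4, Ehd2 and Pacsin3 were not among the named genes, so Cavin3 was the only cavin read.

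None of 8 measured water channels was called on any exposed array, Aqp5 and Aqp1 among them. The others lay near the floor: Aqp2, Aqp3, Aqp6, Aqp7 and Aqp9 were under it on at least 1 array, and only Mip, the lens channel, was above it on all, between 367 and 634. None of the 11 measured genes of the list for alveolar ion transport and its regulation was called. The sodium channel subunit Scnn1a read 8246, 5380, 7060, 7294 and 5190, and the kinase Sgk1, which raises that channel's activity, 1896, 1131, 984, 1086 and 927. Medians of the ion transport list were 0.30, 0.17 and 0.19 on the 3 exposed arrays.

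Genes of cell junctions, those of gap junctions among them, also gave no call among 10 measured, with medians of 0.18, 0.14 and 0.30. Tjp1, the tight junction scaffold, read between 4436 and 5561 and the adherens and desmosome protein Jup between 4832 and 5739. Ocln, a tight junction membrane protein, read 1053 on the early, 1015 on the sham and 741 to 836 on the other arrays. Its other probe sets differed from this, at 529 against a value under the floor for one and 443 against 513 for the other on the early and intermediate arrays. The gap junction protein Gja4, typical of arterial endothelium, read 2103, 1505, 1980, 1592 and 1386, highest on the early array. Its relative Gja5 read 4230, 5670, 4360, 3309 and 2812, highest on the intermediate array, where a dimmer second probe set read 592 against 605 in untreated lung.

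**Figure D5:**
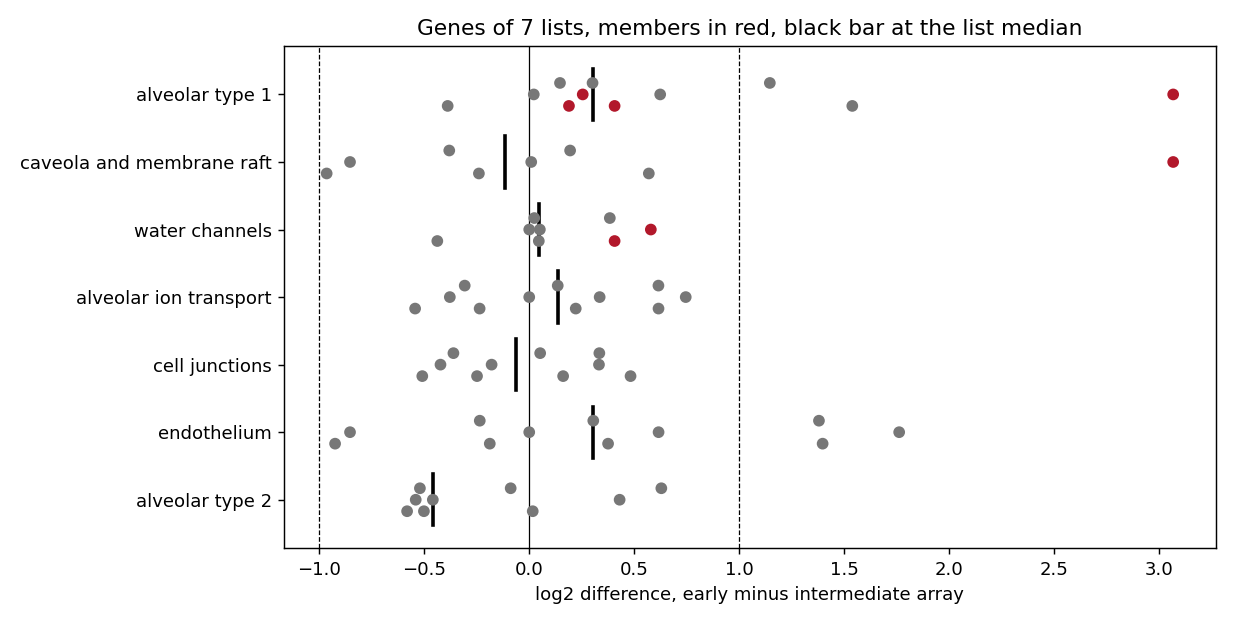
Each point is 1 measured gene of the list at left, placed by its log2 difference of the early from the intermediate array, with the members in red, a black bar at the list median and dashed lines at 2-fold; height within a row carries no value. Cav1, shown in 2 lists, stands apart at 3.07, while the median of alveolar type 2 markers is -0.46.

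Partners of the other members were read as well. Msn, a linker of membrane proteins to actin that binds the tail of podoplanin, was the 1 of 7 podoplanin partners called: it read 1263, 322 and 392 on the exposed arrays in time order and 265 in untreated lung. On the sham array it was under the floor, and the early value was at least 7.32-fold higher. The second Msn probe set was under the floor on all 5 arrays, so the call rests on a single probe set. Its relative Ezr read between 8399 and 10403 and was lowest on the early array. Of 8 ligands and signalling partners of Ager, the calgranulins S100a8 and S100a9 were called on the early array, S100a8 at 2121 and S100a9 at 2850, against 816 and 1339 on sham and 539 and 980 on untreated. S100a9 was also called on the intermediate array, at 2737. Both are abundant in neutrophils and also belong to the neutrophil and macrophage list, likewise drawn up with earlier results of these arrays known. Of the 9 measured genes of that list, 4 were called higher on the early array, 3 on the intermediate and 5 on the late. The shares of all genes called in either direction were 2.84%, 1.09% and 1.64%. Besides the calgranulins, the called genes of the list were Padi4 and Mmp12 on each exposed array, and Fcgr2b, Ctsk and Spp1 on the late array. The summed intensity of that list was 19231 to 20153 on the exposed arrays and 12044 and 10648 on sham and untreated. Lgals3 was the largest part of it, at 10479, 9659, 10567, 7230 and 5845. Ptprc, of the same list, read 830, 742, 1222, 885 and 1275. On the early and intermediate arrays it was thus below both unexposed ones. The part of neutrophils and macrophages in the calgranulin values was not tested. The ligand Hmgb1 read between 3197 and 4642, within 2-fold on all arrays, as Ager did.

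Markers of other cells that hold Cav1 or Aqp1 went both ways on the early array. Of 11 measured endothelial genes 3 were called higher there, namely Calcrl, the vasoconstrictor Edn1 and the adhesion molecule Selp, where 2.84% of all genes were called in either direction. No endothelial gene was called on the intermediate or late array. The Calcrl call rests on the probe set already given, since the second one was under the floor on the early array. Others were lower on the early array than on both unexposed ones. The adhesion molecule Icam2 was under the floor there, against 366 and 318 on sham and untreated. The probe set taken for the nitric oxide synthase Nos3 read 311 against 521 and 382. A dimmer Nos3 probe set went the other way, at 289 against 225 on sham and a value under the floor on untreated. Another read 238 against 246 and 266, and the rest were under the floor on every array.

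Thbd, the thrombin receptor of endothelium, read 711 on the early array, near the 714 of sham and the 819 of untreated lung, whereas a second probe set read 1455 against 616 and 535. The growth factor receptor Kdr, at 1950, lay between sham and untreated (1741 and 2219). Pecam1, a defining endothelial marker, read 1222, 469, 641, 432 and 644, and Vwf was under the floor on all but the untreated array. The summed intensity of the endothelial list was 13812 on the early array and 10254 to 11512 on the others, with a median difference from the unexposed mean of 0.28 on the early array and -0.03 on the intermediate array.

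Alveolar type 2 markers gave 0 calls among 9, with summed intensities of 200108, 265723, 263721, 219654 and 205435 and a median early difference of -0.06. Members went both ways on the early array: the lipid carrier Fabp5 read 9725 there against 6402 on sham and 4701 on untreated, and Sftpc was lower than on either. In 7 measured adipocyte genes, a cell rich in caveolae, none was called higher. Cfd, a complement factor made by fat cells, was called lower on the early and late arrays, and Ucp1, the uncoupling protein of brown fat, on the intermediate and late ones. Of all 3667 genes, 11, 8 and 38 were called lower on the exposed arrays in time order. A second Ucp1 probe set was lower than both unexposed arrays on all 3 exposed arrays, by less than 2-fold from untreated. The other genes of the list went different ways. Fabp4 and Cidea were below both unexposed arrays on every exposed array, and Pparg on the intermediate and late ones. Lpl read 4379 and 4535 on the early and intermediate arrays, above sham and untreated (4241 and 4041), and 3738 on the late array. Lep lay between sham and untreated on every exposed array. The adipocyte sum was highest on the untreated array at 10465.

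Of 11 smooth muscle and fibroblast genes, the matrix proteoglycan Dcn was called lower on the early array, at 1933 against 3974 on sham and 6012 on untreated. There 11 of 3667 genes were called lower. Other genes of the list went both ways on that array, by less than 2-fold. Cnn1, Actg2, Col1a1 and Col1a2 were below both unexposed arrays, Acta2, Tagln, Col3a1 and Fn1 above both, and Myh11 and Des between them. The further Dcn probe sets were not below sham by 2-fold, and 2 of them were above it, with values of 870 against 804 and 512 against 301. The 3 airway club and ciliated genes and the 3 lymphatic and mesothelial genes gave no call on any exposed array. The part of these cells in the members' values was not tested.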

How the data were processed

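The file holds 1 linear intensity per probe set and array as deposited by the authors. That the authors had scaled the arrays is read from the values, whose mean after trimming 2% at each end was 999.97 on each array. The sources used here do not give the algorithm. Without 59 control probe sets, used for the 5′ and 3′ signals alone, 8740 remained. Of these, 7006 had 1 gene symbol in the platform annotation, 308 several and 1426 none; only the first kind was named, and 6985 of them were found in RefSeq (GRCr8), which changed no symbol.

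The deposited intensities were multiplied by factors of 0.931 to 1.07 to the same median, floored at the 40th percentile of all values and taken to log2. A gene was represented by its probe set of highest mean log2 value. Genes were called at 2-fold against each reference array. The rule was tried on simulated data, with changes planted only in genes brighter than Cav1 was on the unexposed arrays. That trial therefore does not cover Cav1 or dimmer genes. With 1 array per group and members known from these arrays, no model was fitted and no p-value given. Likeness used genes above the floor on all arrays. Named beside the members were the nearest 6 genes in profile and, per list, up to 3 called genes or else the 2 brightest; further list genes, such as Spock2, Timp3, Vegfa, Pecam1, Hbb, Cavin3, Cav3, Flot1, Flot2, Ocln, Gja4, Gja5, Scnn1a, Sgk1, Ezr, Hmgb1, Icam2, Nos3, Thbd, Kdr, Vwf, Fabp5, Fcgr2b, Ctsk, Mip and the dim aquaporins, were named after their values were seen. The members and the 15 lists were chosen with earlier results of these data known. Alternatives were other scalings, floors, probe set rules, folds and references. Python 3.11.15 with numpy 2.4.6 and pandas 2.3.3 was used. The number of arrays limits the precision.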

Additional observations from a re-analysis of the deposited data

Results flagged for a closer look

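Cav1 differed in opposite directions from both unexposed arrays in different phases. Against the nearer of sham and untreated, its log2 difference was 1.72, -1.31 and -0.55 for the dust arrays in time order. With 1 array per phase, this difference between phases was not tested. The ratios of 5′ over 3′ signal, for GAPDH as for beta-actin, were highest on the early and lowest on the intermediate array, and their part in it was not tested.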

How the results depend on the processing

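Of 131 alternative values of the called differences and counts, 124 kept their direction, their side of 2-fold or their count to within 1.5 times. Cav1 stayed above both unexposed arrays on the early array, with log2 differences of 1.53 to 1.76 in 11 alternatives, and past 2-fold below them on the intermediate array in 10 of 11. Some of these could not move. Cav1 has a single probe set, so the probe set rules returned the main early value of 1.72, as did both other floors. Leaving out an unexposed array can only keep or enlarge a difference from the nearer one. With the floor at the 60th percentile, that difference was -0.77 and 0 members were called there. At 1.5-fold, 2 members (Cav1 and Aqp1) were called on the early array and 1 (Cav1) on the intermediate array against the other phases. Scaling to the 75th percentile left 3 members highest on the early array. Aqp1 on the intermediate array, 0.11 above the mean of the unexposed arrays, was at -0.057 without further scaling, -0.0081 with equal 75th percentiles and -0.078 with quantile normalization, and Pdpn, at 0.01, was at -0.16, -0.11 and -0.20. Leaving out an array, a choice made after seeing the data, moved counts between phases where Cav1 decides them: without the intermediate array 1 member was called on the late array, and without the late array 1 on the intermediate, each against 0, so they ran from 0 to 1. Without sham or without untreated no call against the unexposed arrays changed. No paired analysis was possible because each group had 1 array. Depth has no meaning for these intensities, and near the floor of 172.53 the dim aquaporins give no order.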

Other observations

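The unexposed arrays themselves disagreed for some genes beside the members. Spock2, a matrix proteoglycan listed with the type 1 markers, read 5284 with saline and 1523 in untreated lung, and between 2350 and 5126 on the exposed arrays. The aquaglyceroporin Aqp7 read 416 on the untreated array, 365 and 359 on the early and intermediate arrays and values under the floor on the sham and late arrays.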
